A study of Homo sapiens with 6 samples.

Results

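The MYC network is a family of basic helix-loop-helix leucine zipper transcription factors, and 10 of its genes were followed here in the established human line T24, derived from a bladder cancer. The members are MYC, MYCN and MYCL, the shared partner MAX, the antagonists MXD1, MXD3, MXD4, MXI1 and MNT, and the related partner MLX. They were found by matching Ensembl gene identifiers to these symbols, and all 10 were present among the 60612 identifiers of the deposited count table. RNA sequencing had been carried out on 6 libraries of total RNA depleted of ribosomal RNA, 3 labelled negative control and 3 labelled FOXF1-activated. The protocol given for all 6 describes lentiviral delivery of a short hairpin and selection with 3 µg/ml puromycin. For the medium change 24 h is given, also for all 6. In the control libraries the genotype label was WT and the virus was Lenti-dsControl. In the other group the virus was Lenti-dsFOXF1-367, whose hairpin was made from a small activating RNA, a short duplex meant to raise transcription of FOXF1. Whether libraries of one group came from separate cultures is not stated, so p-values measure only how much these libraries scatter, and that scatter may be technical.

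MYC activates transcription as a dimer with MAX at the E-box, a short DNA element read CACGTG. MXD proteins and MNT also dimerise with MAX at E-boxes, but they recruit the SIN3 corepressor and oppose MYC. MLX is the partner of MondoA, encoded by MLXIP, and of ChREBP, encoded by MLXIPL, which switch on genes such as TXNIP when glucose phosphates are plentiful, and MLX can pair with MXD1, MXD4 and MNT as well. MXD genes are known for expression in cells that leave the cycle and differentiate, except MXD3, which is known for expression during S phase.

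Library totals were 72500854 to 77198669 counts, and 20334 genes had enough counts to be tested, of which 60.7% differed between the groups at an edgeR adjusted p under 0.05. FOXF1, the gene the hairpin was designed to raise, ran against its label. It stood at 7.52 ± 0.43 CPM (a count scaled by library size) among controls. In the FOXF1-activated libraries, called activation-labelled from here on, it stood at 5.27 ± 0.60 CPM (SD, n = 3; edgeR adjusted p = 0.0109). Every direction below is that of the label. The epithelial keratin genes KRT8 (651 and 508 CPM on average) and KRT18 (532 and 481 CPM) were abundant in both groups. Of these, KRT8 was called lower (edgeR adjusted p = 1.22e-04) and KRT18 was not called. KRT7 was abundant too and fell further, from 539 ± 41 to 203 ± 16 CPM (edgeR adjusted p = 3.00e-07). KRT19 averaged 2.13 and 1.72 CPM and was not called. EPCAM averaged 0.941 and 0.383 CPM and was lower (edgeR adjusted p = 0.0341). The 6 epithelial markers summed to 1657 to 1783 CPM in the controls and 1160 to 1240 CPM in the others (3 lower, 0 higher). The 10 urothelial markers summed to 53.8 to 58.0 CPM in the controls and 61.0 to 67.4 CPM in the others, nearly all of it PPARG, which was called higher (edgeR adjusted p = 0.0155). GATA3 and UPK1B were detected in every library below 1 CPM, KRT5, TP63, UPK1A and UPK3A were at 0 everywhere, and the epithelial cadherin CDH1 was at 0 in the controls. Summed markers of other cell types were 412 to 464 CPM in the controls and 313 to 499 CPM in the other group for 7 fibroblast genes, of which 2 were lower and 0 higher. They were 20.0 to 26.9 and 22.8 to 25.7 CPM for 6 leukocyte genes (2 higher, 1 lower), and 5.19 to 8.80 and 5.06 to 13.6 CPM for 4 endothelial genes (1 higher). Their part in the results below was not tested. In bulk RNA, fewer cells with a transcript and less of it per cell cannot be told apart.

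MYC and MAX rose together, and the MXD genes split. Of the 10 members 9 were tested, and 5 were higher (MYC, MAX, MXD1, MNT and MLX) and 3 lower (MXD3, MXD4 and MXI1), beside 29.2% and 31.5% of all tested genes. The median log2 fold change of the 9 was 0.42, and that of all tested genes was -3.24e-05. Calls were frequent among well expressed genes: with a filter of 1 CPM, 8 of 8 members that passed were called, beside 75.2% of all genes that passed. Of all genes that passed, 36.7% were higher and 38.5% lower. The 2 sets of libraries were fully separate for 8 of the 9 members, as for 68.8% of tested genes. With calls this common, the count alone says little about the network, and the sizes and directions of the single genes are given below.

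MYC was at 61.3, 66.3 and 61.2 CPM in negative control libraries 1, 2 and 3 and at 143, 157 and 149 CPM in FOXF1-activated libraries 1, 2 and 3. Every library with that label held more MYC than every control. The log2 fold change was 1.25 ± 0.06 SE, a 2.38-fold rise (edgeR adjusted p = 1.55e-07). MYC (ENSG00000136997) lies on the plus strand of chromosome 8 at 127735434 to 127741434 (GRCh38, GENCODE 29).

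MAX, the obligate partner (ENSG00000125952, chromosome 14, 65006174 to 65102695, minus strand), was at 54.2, 51.3 and 50.5 CPM in the controls. It reached 108, 96.0 and 103 CPM in the activation-labelled libraries, again without overlap. The log2 fold change was 0.97 ± 0.06 SE (edgeR adjusted p = 8.05e-07).

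The paralogues MYCN and MYCL, known for expression in neural and lung tumours, were close to the limit of detection. MYCN had 0 counts in 4 of the 6 libraries, with 8 in negative control library 2 and 3 in FOXF1-activated library 3, and was not tested. MYCL had 10, 4 and 10 counts in the controls and 35, 0 and 20 in the other group, which overlapped, with log2 fold change 1.28 ± 1.13 SE (edgeR adjusted p = 0.356). A count of 0 allows up to 3 counts, or 0.0376 to 0.0426 CPM depending on the library, and covers counting error only. MYC thus held nearly all MYC-family counts in every library.

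MXD1, the antagonist first described as MAD1, had the largest change of the 8 called members. It stood at 8.40, 6.85 and 6.63 CPM in the controls and 82.0, 80.2 and 85.3 CPM in the activation-labelled libraries. The 3 libraries of each group lay close to one another and far from the other group. The log2 fold change was 3.50 ± 0.10 SE, an 11.3-fold rise (edgeR adjusted p = 1.49e-08). MXD1 (ENSG00000059728) is on chromosome 2 at 69897688 to 69942945, plus strand, and 3.73% of its exon bases are shared with SNRNP27, a splicing factor gene on the same strand that rose less, by 1.11 on the log2 scale.

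MXD3, MXI1 and MXD4, the remaining genes of that subfamily, fell. MXD3 was at 18.7, 20.8 and 17.0 CPM in the controls and 4.73, 5.81 and 5.59 CPM in the other libraries, log2 fold change -1.81 ± 0.13 SE (edgeR adjusted p = 1.63e-06). MXI1, also called MXD2, was at 13.9, 16.4 and 18.7 CPM and then 7.84, 7.21 and 8.97 CPM, log2 fold change -1.03 ± 0.14 SE (edgeR adjusted p = 1.38e-04). In both genes the groups stood apart, although the MXI1 controls spread more widely than its other libraries.

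MXD4 fell less, from 52.2, 48.4 and 52.4 CPM to 40.0, 37.6 and 35.7 CPM, with log2 fold change -0.43 ± 0.07 SE (edgeR adjusted p = 4.05e-04). Its groups did not overlap. MXD3 shares 18.0% of its exon bases with RAB24 on the same strand, a gene of a small GTPase that fell by 0.83 on the log2 scale, and 22.5% with PRELID1 on the opposite strand, which was not called (log2 fold change 0.04, edgeR adjusted p = 0.738). The MXD3 values may hold reads of its neighbours, since the counting rule for overlaps is not known here.

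MNT, the antagonist present in most proliferating cells, and MLX rose modestly. MNT was at 37.3, 40.2 and 40.0 CPM in the controls and 48.3, 57.3 and 51.8 CPM in the activation-labelled libraries, log2 fold change 0.42 ± 0.08 SE (edgeR adjusted p = 9.52e-04). MLX was at 61.7, 62.9 and 59.2 CPM and then 81.2, 81.9 and 76.8 CPM, log2 fold change 0.38 ± 0.05 SE (edgeR adjusted p = 1.92e-04). Neither gene had a library of one group within the range of the other. Of the MLX exon bases 18.1% are shared with PSMC3IP, a recombination factor gene on the opposite strand that moved the other way (-0.73). Of the MNT exon bases 12.2% are shared with AC006435.1, an antisense gene on the opposite strand.

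**Figure D1:**
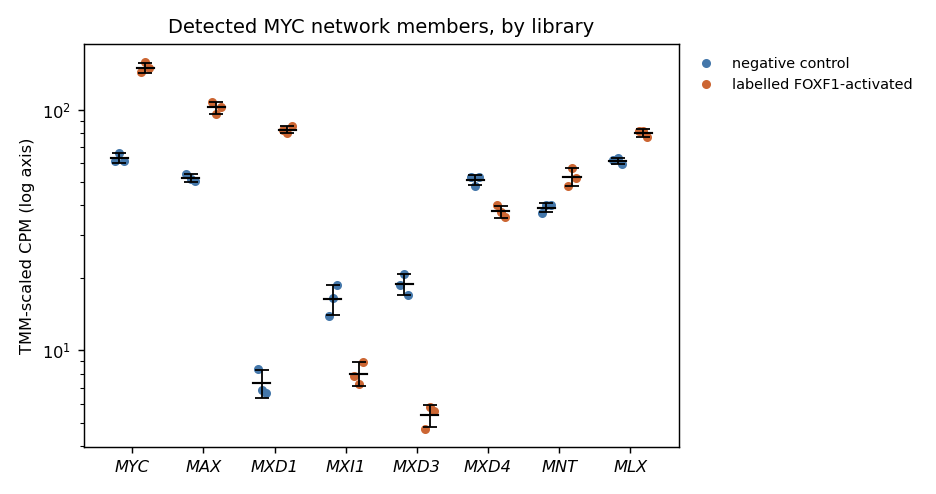
TMM-scaled CPM on a log axis for the 8 well detected members in each library; points are libraries, horizontal bars are group means and error bars are SD (n = 3). MXD1 moved from a mean of 7.29 to 82.5 CPM, while MXI1, MXD3 and MXD4 were lower and MYC, MAX, MNT and MLX higher in the activation-labelled libraries; MYCN and MYCL, with libraries at 0, are not drawn.

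Levels of different genes were set side by side as CPM per kilobase of annotated exon. In the controls MYC was highest at 20.97 ± 0.97 CPM per kilobase, followed by MLX (14.4 ± 0.4), MAX (11.7 ± 0.4), MXD4 (7.23 ± 0.32), MNT (4.49 ± 0.18), MXD3 (3.65 ± 0.36), MXI1 (3.55 ± 0.52) and MXD1 (1.15 ± 0.15; SD, n = 3). The levels of MXD3 and MXI1 overlapped, so their order is not resolved. In the activation-labelled libraries the order of levels was MYC (49.8 ± 2.4), MAX (23.1 ± 1.3), MLX (18.8 ± 0.6), MXD1 (13.0 ± 0.4), MNT (6.01 ± 0.52), MXD4 (5.35 ± 0.30), MXI1 (1.74 ± 0.19) and MXD3 (1.04 ± 0.11), where MNT and MXD4 overlapped. MXD1 went from the lowest of these 8 to the fourth place. With the longest transcript in place of all exons MXD3 stood above MNT in the controls and above MXI1 in the other group, both times with overlapping libraries, and MAX and MLX overlapped in the latter.

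The make-up of the MXD subfamily changed with the label. MXD1 supplied 8.60%, 6.95% and 6.60% of the summed per-kilobase level of the 4 MXD genes in the controls and 60.9%, 61.2% and 62.4% in the activation-labelled libraries. MXD4, the leading MXD transcript of the controls, went from 46.4 ± 2.1% to 25.3 ± 1.7% of that sum (SD, n = 3). The sum itself was 15.6 ± 0.2 and 21.1 ± 0.4 CPM per kilobase, a smaller difference than that of MXD1 alone. By longest transcript the sum was 26.3 ± 0.2 and 28.4 ± 0.5 CPM per kilobase, so the size of its rise depends on the annotation used. The MXD4 share by that length was 45.8 ± 2.3% and 31.5 ± 2.0%, and the MXD1 share 4.96 ± 0.70% and 52.1 ± 0.9%.

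Ratios taken within a library do not depend on how libraries are scaled. The ratio of MYC to MAX, per kilobase, was 1.67, 1.91 and 1.79 in the controls and 1.96, 2.42 and 2.13 in the other libraries, so the groups stood apart only narrowly. The ratio of the summed antagonists (the 4 MXD genes and MNT) to MYC was 0.962, 0.912 and 1.0003 in the controls and 0.561, 0.519 and 0.555 in the activation-labelled libraries. Antagonist transcripts were thus about level with MYC in the controls and lower than MYC in the other group, in spite of the MXD1 rise. With the longest transcript as the length the same ratio was 1.29 ± 0.05 and 0.616 ± 0.021, so its position relative to 1 in the controls depends on the annotation used. MYC made up 47.5 ± 1.1% and 60.8 ± 1.3% of the summed level of MYC-family genes, MXD genes, MNT and MGA. That sum was 3.77 ± 0.21 times the MAX level in the controls and 3.56 ± 0.30 times in the other group, with overlapping libraries, but 3.92 ± 0.21 and 3.35 ± 0.29 times, without overlap, by longest transcript. No p-value is attached to these ratios, because the members were chosen with earlier results of these data known.

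**Figure D2:**
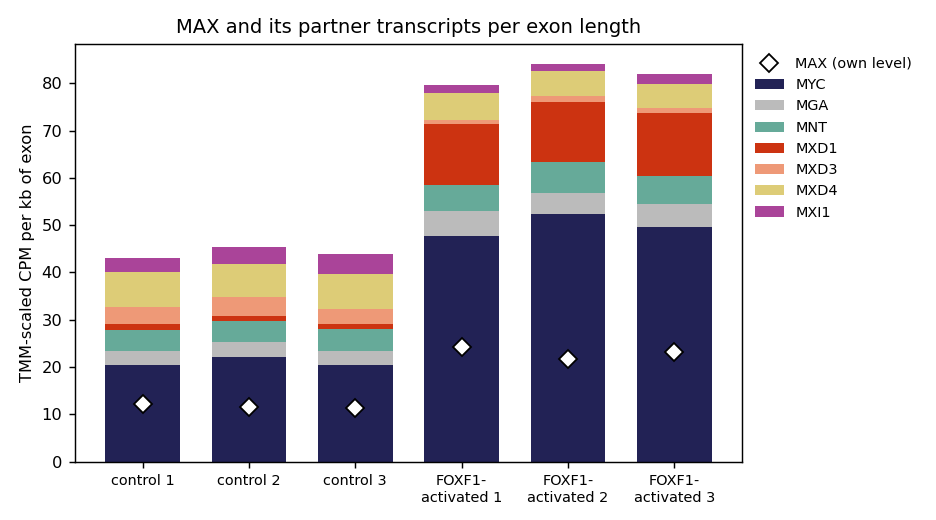
Stacked TMM-scaled CPM per kilobase of exon of MYC, MGA, MNT and the 4 MXD genes in each library, with the level of MAX as a diamond. MYC takes 46.6% to 48.7% of the stack in the 3 controls and 59.7% to 62.3% in the 3 libraries labelled FOXF1-activated, where the MXD1 segment is also larger and the MXD3 and MXI1 segments are smaller.

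MLXIP and 3 glucose-responsive targets of MondoA fell while MLX rose. MLXIP, which encodes MondoA, was at 165, 149 and 154 CPM in the controls and 55.3, 59.8 and 61.0 CPM in the activation-labelled libraries. The log2 fold change was -1.41 ± 0.06 SE (edgeR adjusted p = 1.04e-07). Per kilobase, MLXIP was 0.781 ± 0.049 times the level of MLX in the controls and 0.225 ± 0.017 times in the other group (SD, n = 3). MLXIPL had at most 7 counts in a library and was not tested.

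All 3 glucose-responsive targets fixed for MondoA and MLX were lower, with a median log2 fold change of -1.50. TXNIP, which encodes a thioredoxin-binding inhibitor of glucose uptake, was at 123, 185 and 147 CPM in the controls and 25.1, 20.9 and 27.6 CPM in the other libraries. Its controls varied more than its other libraries did, yet the groups were far apart (log2 fold change -2.63 ± 0.15 SE, edgeR adjusted p = 4.98e-07). ARRDC4, an arrestin-domain gene related to TXNIP, went from 4.41, 6.02 and 3.997 CPM to 1.28, 2.12 and 1.71 CPM (log2 fold change -1.50, edgeR adjusted p = 5.18e-04). KLF10, a zinc finger repressor gene, went from 83.4, 97.4 and 90.1 CPM to 51.5, 42.9 and 44.5 CPM (log2 fold change -0.97, edgeR adjusted p = 6.76e-06). With 3 genes, and 31.5% of all tested genes lower, the list is described and not set against other genes.

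**Figure D3:**
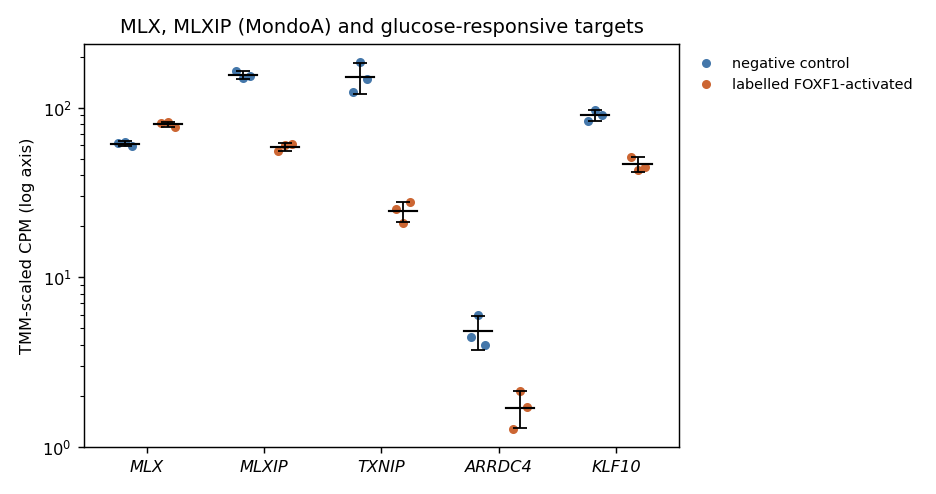
TMM-scaled CPM on a log axis for MLX, MLXIP and the 3 MondoA targets in each library; points are libraries, horizontal bars are means and error bars are SD (n = 3). MLX was higher in the activation-labelled libraries, whereas MLXIP, TXNIP, ARRDC4 and KLF10 were lower in all 3 of them than in any control.

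MGA, a large protein that pairs with MAX and belongs to a Polycomb-type repressor complex, rose. It was at 54.4, 55.1 and 52.6 CPM in the controls and 94.1, 79.3 and 86.0 CPM in the other libraries, log2 fold change 0.68 ± 0.07 SE (edgeR adjusted p = 1.92e-05).

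Noncoding genes beside MYC were higher as well. PVT1, a long noncoding RNA gene downstream of MYC, went from 21.1, 19.1 and 18.1 CPM to 49.6, 49.1 and 47.8 CPM, log2 fold change 1.33 ± 0.08 SE (edgeR adjusted p = 5.42e-07). PCAT1 went from 0.238, 0.261 and 0.201 CPM to 1.96, 1.30 and 2.11 CPM (log2 fold change 2.93 ± 0.33 SE, edgeR adjusted p = 3.83e-05). It shares 6.90% of its exon bases with FAM84B on the opposite strand and 5.03% with POU5F1B on the same strand. The PCAT1 counts were low and may hold reads of these neighbours, which was not tested. CASC11 had 0 counts in the controls and 18, 0 and 8 in the activation-labelled libraries, and was not tested. The changes of MYC and PVT1 were of like size, and all directions here are those of whole genes, since the table gives no transcripts.

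The profile of MYC was set beside those of 10980 tested genes with a mean of at least 5 CPM, leaving out clone, LOC and LINC names. The 5 nearest were taken by the root mean square difference of log2 CPM over the 6 libraries after centring each gene. They were AEN, an apoptosis-enhancing nuclease gene (difference 0.018), OSBP, an oxysterol-binding protein gene (0.026), THOC5, of the mRNA export complex THO (0.029), ICAM1, an adhesion receptor gene (0.035), and DYRK3, a kinase gene (0.039). The median difference over the genes searched was 0.67. Log2 fold changes of the 5 ran from 1.21 (ICAM1) to 1.32 (DYRK3), beside 1.25 for MYC. With 2 groups of close libraries, the likeness is largely that of a like difference between the groups. OSBP, for example, went from 87.7 ± 4.5 to 209 ± 12 CPM (SD, n = 3).

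Coactivators and partner proteins of MYC went both ways, with 9 of 17 higher and 7 lower (median log2 fold change 0.18). Of all tested genes 29.2% were higher and 31.5% lower, and of those that passed the 1 CPM filter 36.7% and 38.5%. HCFC1, a chromatin adaptor that binds MYC, rose from 185 ± 19 to 506 ± 17 CPM (log2 fold change 1.45 ± 0.07 SE, edgeR adjusted p = 2.27e-07). TRRAP, the scaffold of MYC-bound acetyltransferases, rose from 191 ± 3 to 342 ± 6 CPM (0.84 on the log2 scale), and CTR9 of the PAF1 elongation complex rose by 0.83 on that scale. CDK9, the elongation kinase, fell (-0.92 on the log2 scale), with 67.9 ± 1.9 CPM in the controls and 35.9 ± 3.0 CPM in the other group.

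The SIN3 and NCOR corepressor genes through which MXD proteins and MNT act were 5 of 16 higher and 7 lower, and the share higher was near the 29.2% of all tested genes (31.5% lower). The scaffold gene SIN3A fell from 135 ± 3 to 63.0 ± 3.2 CPM (log2 fold change -1.10 ± 0.06 SE, edgeR adjusted p = 2.35e-07). Its paralogue SIN3B rose from 75.8 ± 2.5 to 102 ± 7 CPM (log2 fold change 0.43 ± 0.06 SE, edgeR adjusted p = 1.92e-04). SIN3B was chosen after its values were seen. The histone-binding subunit genes RBBP4 (-1.08) and RBBP7 (-0.81) fell, and the subunit gene SUDS3 rose (0.90). The count of higher genes was 3 without negative control replicate 2, without FOXF1-activated replicate 1 or without FOXF1-activated replicate 3, and also with library totals as the scaling or with no filter.

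Genes that act on MYC protein were mixed. Of 12 factors that promote its degradation 5 were higher and 5 lower, where 29.2% and 31.5% of all tested genes were. Among all genes that passed the 1 CPM filter 36.7% were higher and 38.5% lower. PPP2CA, the catalytic subunit of phosphatase PP2A, rose from 173 ± 9 to 345 ± 22 CPM (log2 fold change 0.99, edgeR adjusted p = 8.85e-07). GSK3B (0.63) and GSK3A (0.52), kinases that mark MYC for the ubiquitin ligase FBXW7, rose as well. FBXW7, chosen after its values were seen, rose by 0.84 on the log2 scale, and the ubiquitin ligase gene HUWE1 fell (-0.49). Of 11 factors that stabilise MYC 3 were higher, near the 29.2% of all tested genes, and 5 lower, beside 31.5%. Under upper-quartile scaling 5 were higher, beside 32.6% of all tested genes. The mitotic kinase genes PLK1 (-1.89) and AURKA (-1.14) fell, while the deubiquitinase gene USP36 (1.32) and the kinase gene PIM1 (1.36) rose. PIM1 went from 15.9 ± 0.5 to 40.8 ± 3.1 CPM.

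Nucleolar and ribosome biogenesis genes known as MYC-activated targets were more often higher than lower. Of 33 tested, 21 were higher and 5 lower, beside 29.2% and 31.5% of all tested genes. Among all genes that passed the 1 CPM filter the shares were 36.7% and 38.5%. With offsets for GC content and length 3 of the nucleolar genes were lower. The median log2 fold change of the list was 0.34, where that of all tested genes was -3.24e-05. RRP12, which carries ribosomal subunits out of the nucleus, rose from 87.5 ± 2.3 to 237 ± 13 CPM (log2 fold change 1.44 ± 0.06 SE, edgeR adjusted p = 6.38e-08). BOP1, of the PeBoW complex of large subunit assembly, rose by 1.01 on the log2 scale and GNL3, nucleostemin, by 0.84. PA2G4, a ribosome-associated growth regulator gene, fell from 183 ± 8 to 99.02 ± 2.30 CPM (-0.89). Among the abundant nucleolar genes NPM1 was higher (0.36), and NCL was not called (-0.11, edgeR adjusted p = 0.0685). NPM1 and NCL were chosen after their values were seen, and NPM1 has processed pseudogenes that could share its reads.

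Metabolic, translation and cell cycle targets of MYC were called in both directions. Of 29, 11 were higher and 13 lower, beside 29.2% and 31.5% of all tested genes. Among all genes that passed the 1 CPM filter 36.7% were higher and 38.5% lower. The median log2 fold change of the list was -0.10, and under upper-quartile scaling it was 0.0013 where that of all tested genes was 0.10. ODC1, the entry enzyme of polyamine synthesis, rose from 48.1 ± 0.9 to 141 ± 7 CPM (log2 fold change 1.55 ± 0.06 SE, edgeR adjusted p = 3.90e-08). SRM, spermidine synthase of the same pathway, fell from 26.1 ± 2.3 to 3.91 ± 0.86 CPM (log2 fold change -2.74, edgeR adjusted p = 5.66e-07; this gene was chosen after its values were seen). SHMT1, the cytosolic serine hydroxymethyltransferase, fell from 165 ± 1 to 27.0 ± 2.8 CPM (-2.62), E2F1, an activator of S-phase genes, fell (-1.99), and so did PTMA, the prothymosin alpha gene (-1.84). PTMA has many processed pseudogenes, so its value is uncertain.

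Targets that MYC is known to repress were 2 higher and 5 lower of 12 (median log2 fold change -0.24). With 58.3% called, the list was near the 60.7% of all tested genes. GADD45A, a growth arrest and DNA damage gene, rose from 49.1 ± 2.8 to 201 ± 4 CPM (log2 fold change 2.03 ± 0.06 SE, edgeR adjusted p = 1.55e-08). The CDK inhibitor genes CDKN2C (-1.68) and CDKN1A (-0.85) fell, as did NDRG2 (-2.49), from 3.42 ± 0.41 to 0.609 ± 0.088 CPM.

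**Figure D4:**
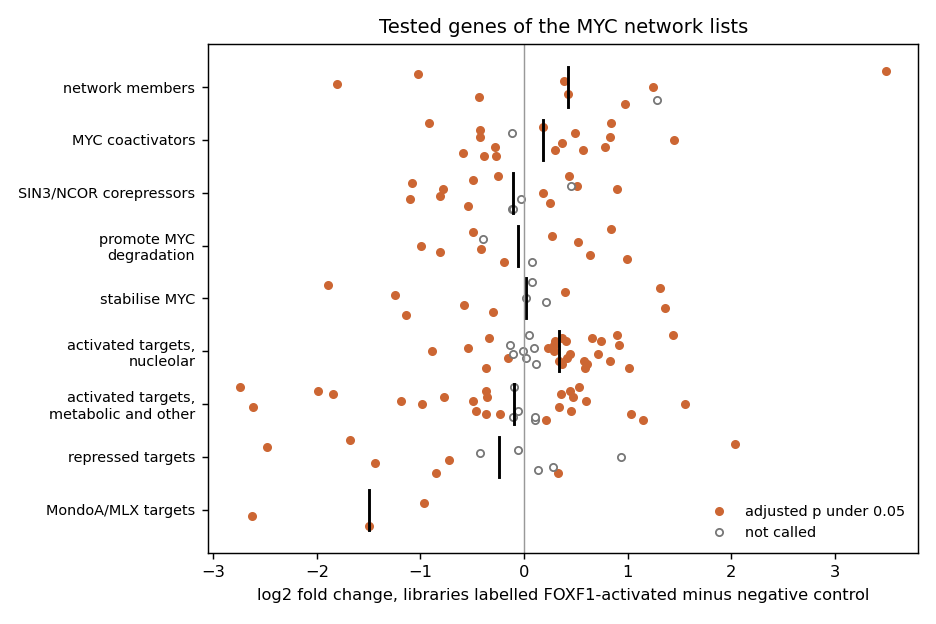
Log2 fold change of each tested gene in 9 lists; filled points passed an edgeR adjusted p of 0.05, open points did not, vertical position within a list only separates points, and black bars are list medians. The nucleolar targets centre at 0.34 and the 3 MondoA targets at -1.50, and every list of targets or cofactors drawn other than the MondoA targets has genes on both sides of 0.

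The E-box was looked for in the 250 bases before the gene start in RefSeq promoters (GRCh38.p14), where CACGTG reads the same on both strands. It was found for 7.73% of 27305 genes with such a window, for 3 of the 9 members with a window (MXD4, MNT and MLX) and for 11 of 25 genes in the metabolic target list. The nucleolar targets held it in 3 of 26 windows, the factors that stabilise MYC in 5 of 7 and those that promote its degradation in 0 of 9. It was in 3 of 12 windows of coactivator genes, 1 of 14 of corepressor genes and 1 of 9 of repressed targets. Of the 11 metabolic targets, 5 were higher, 5 lower and 1 not called, where the whole list of 29 had 11 higher and 13 lower. Among all tested genes 29.2% were higher and 31.5% lower, and among those that passed the 1 CPM filter 36.7% and 38.5%. Stretches around the element are shown for genes with this motif that moved in different directions, with the E-box in capitals. ODC1 and MNT rose, and SRM, MXD4, SLC7A5 (an amino acid transporter gene, -0.46) and CDKN2C fell. SLC7A5 was chosen after its values were seen.
ODC1 (chr2:10448013-10448066, minus strand): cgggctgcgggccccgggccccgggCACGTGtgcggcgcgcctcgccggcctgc
MNT (chr17:2401223-2401278, minus strand): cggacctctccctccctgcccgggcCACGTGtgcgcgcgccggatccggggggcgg
SRM (chr1:11060187-11060242, minus strand): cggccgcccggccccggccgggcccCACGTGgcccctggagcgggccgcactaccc
MXD4 (chr4:2262317-2262359, minus strand): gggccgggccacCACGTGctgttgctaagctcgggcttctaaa
SLC7A5 (chr16:87869607-87869662, minus strand): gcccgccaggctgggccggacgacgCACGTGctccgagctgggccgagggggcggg
CDKN2C (chr1:50960500-50960555, plus strand): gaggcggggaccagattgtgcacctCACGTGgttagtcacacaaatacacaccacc
The element begins 29 bases before the RefSeq start of ODC1, 193 before that of MNT and 199 before that of SRM. In GENCODE 29 ODC1 spans 10439968 to 10448504, so its stretch lies inside that gene, though outside its annotated exons. A match describes the letters only and says nothing about binding in these cells.

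MondoA and MLX are known to bind paired E-box-like repeats set 5 bases apart. A pair of CACGNG repeats on one strand with any 5 bases between them, searched on both strands, occurred in the windows of 0.0586% of genes (16 of 27305), and TXNIP was among them. The repeats are in capitals, 88 bases before the gene start, and ARRDC4 is shown with its single E-box because it fell with TXNIP.
TXNIP (chr1:145996626-145996692, minus strand): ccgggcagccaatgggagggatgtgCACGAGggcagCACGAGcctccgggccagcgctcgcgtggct
ARRDC4 (chr15:97960468-97960523, plus strand): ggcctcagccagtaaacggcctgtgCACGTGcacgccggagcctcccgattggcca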

How the data were processed

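For 6 libraries the authors deposited raw counts, whole numbers per Ensembl gene. Cutadapt 1.9, TopHat2 2.0.4 and the build GRCh38 are named, per the submitters' processing notes. The counter, its strand setting and its annotation: not given in the sources used here. Multiples of 4 were in excess (a count of 4 was 2.36 times as frequent as the adjacent counts), so the depth may be overstated. Symbols matched 181 of 182 listed genes; coordinates and exon lengths are from GENCODE 29, and promoter sequences from RefSeq.

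Genes were kept by filterByExpr (minimum count 10, minimum total 15), scaled by TMM and tested by quasi-likelihood in edgeR 4.0.16 (R 4.3.3). No covariate entered, and p-values were adjusted by Benjamini-Hochberg over all 20334 genes. Standard errors (SE) equal the absolute log2 fold change over the root of F. CPM levels were computed from the deposited counts and TMM-scaled library sizes. The test was checked on simulated counts with far fewer changed genes than were called here and no excess of multiples of 4. That check therefore cannot vouch for the p-values of these data. Members and lists were chosen with earlier results of these data known. Named were the members, FOXF1, the other dimer partners, the MondoA targets, the neighbours of MYC, the 4 genes with the smallest p in each other list and the 5 genes nearest to MYC in profile (log2 of CPM plus 0.5, mean of at least 5 CPM). Replicates differed by more than sampling noise (chi-square per degree of freedom 18.4 to 30.1). Alternatives used DESeq2 1.42.0 and limma 3.58.1 and are described under the dependence on processing; no p-value was computed for a list.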

Additional observations from a re-analysis of the deposited data

How the results depend on the processing

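The 8 called members kept their direction and their call under all 17 alternatives, with log2 fold changes of 1.17 to 1.40 for MYC, 0.90 to 1.11 for MAX, 3.42 to 3.61 for MXD1, 0.34 to 0.62 for MNT, 0.31 to 0.51 for MLX, -1.88 to -1.55 for MXD3, -1.14 to -0.93 for MXI1 and -0.51 to -0.25 for MXD4, and a highest adjusted p of 0.0107 (MXD4). MYCL turned sign with limma-voom (-0.035, limma adjusted p = 0.985), and the cause was not tested. No other of the 50 tested genes named by the rule above changed side or sign in any alternative run. Genes named outside that rule, such as NCL, NPM1, FBXW7, SRM, SLC7A5 and SIN3B, were not in that check. The SIN3 and NCOR list had 3 higher genes with library totals only and with no filter, and 3 to 4 when a library was left out. The list of stabilising factors had 5 higher genes under upper-quartile scaling, and the nucleolar list 3 lower genes with offsets for GC content and length, a choice made after seeing the data. With those offsets the median log2 fold change of the 9 tested members was 0.62, where that of all genes was 0.015. Medians over all genes moved between -0.08 (library totals) and 0.10 (upper quartile).

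With the longest transcript as the length, the MYC to MAX ratio was 1.62 in the controls, and the ratio of MXD plus MNT to MYC was 1.29 for controls and 0.616 for the activation-labelled libraries. With libraries left out in turn the MYC to MAX ratio was 1.73 to 1.85 and 2.05 to 2.28, and the antagonist ratio 0.937 to 0.981 and 0.537 to 0.558. The replicate block left 5 members higher and 3 lower. Same-numbered libraries did not deviate together (correlations -0.021 to -0.0010). With 3 libraries per group, that cannot settle whether the numbers pair the samples. Depth limits MYCN, MYCL, MLXIPL and CASC11, which were at or near 0.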
